A study of Mus musculus with 8 samples.

Results

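The complement genes examined here were C3, C1r, C1s and Serping1, chosen by symbol from the 22200 genes of the deposited expression table. All 4 were found there, and 3 of them (C3, C1r and C1s) passed the filter on low values, a mean of at least 10 normalised reads over the 8 libraries, which left 12673 genes for the test. The choice was made with the values of these genes in these libraries already known, so their changes are given as a description, with no p-value. The cells were immortalised mouse embryonic fibroblasts (MEFs) of the C57BL/6 background, and by their genotype labels all of them were TAF4-/-, lacking the TFIID component TAF4. The libraries fell into 3 groups. Untreated cells, labelled 12 h, gave 3 libraries, cells treated with retinoic acid (RA) gave 3 at 12 h, and a longer RA treatment gave 2 at 72 h. No untreated cells were measured at 72 h, so the effects of RA and of time in culture cannot be told apart in any comparison with the 72 h group, and both comparisons with untreated cells used the same 3 untreated libraries. RA is the vitamin A derivative that activates the retinoic acid receptors, and the treatment asked how TAF4-null fibroblasts respond to it. In the study, the null line was made by Cre deletion in an immortalised MEF line carrying a floxed and a null Taf4 allele, so the groups rest on 1 line; the labels do not say that replicates came from separate cultures, and the p-values given below for other genes measure only the spread between these libraries. Throughout the text, C3 means the gene.

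Complement is a cascade of blood and tissue proteins that marks particles for uptake and can pierce membranes. In its classical branch, C1q binds to a target and activates C1r, a serine protease that cleaves and activates the serine protease C1s, which in turn cleaves C4 and C2 to form a convertase. The convertase splits C3, the central component on which the branches converge, and C1 inhibitor, the serpin encoded by Serping1, shuts down C1r and C1s. Liver supplies most of the circulating proteins, while fibroblasts and macrophages also make several of them locally. In these libraries, C3 was 3.41-fold and C1r 2.11-fold lower after 72 h of RA than in untreated cells, C1s was 1.4-fold lower and did not pass the threshold, and Serping1 was near the lowest value of the table in all 8 libraries.

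C3 (ENSMUSG00000024164) lies on mm9 at chr17:57343397-57367559, minus strand. C1r (ENSMUSG00000055172, named C1ra in the annotation) and C1s (ENSMUSG00000038521) are neighbours, at chr6:124462423-124473458 on the plus strand and chr6:124480363-124586998 on the minus strand. Serping1 (ENSMUSG00000023224) lies at chr2:84605544-84615601, minus strand. Per the labels, the libraries were made by tag profiling, in which cDNA held on oligo(dT) beads is cut with DpnII and 17 bases beside the cut nearest the 3′ end are read. Under that protocol, each gene is counted by 1 short tag, and the sequence of the tag decides which gene receives the read. The expected tags of the 4 genes, and those of 2 copies at the same locus, were therefore read from the longest protein-coding mm9 transcript of each. They are shown 5′ to 3′ with the DpnII site in capitals.
C3 tag: GATCagaagtaccagaaacag
C1r tag: GATCgtgggtggagcaaccag
C1s tag: GATCttccctcatttaacctg
Serping1 tag: GATCttcaggtgtctgccatg
C1rb tag: GATCaagaaagagatgggaga
Gm5077 tag: GATCttccctcatttaacctg
The C3 tag lies in the coding sequence at chr17:57343493-57343513, 116 bases from the 3′ end of the transcript. The C1r tag lies in the 3′ UTR at chr6:124473343-124473363, and the Serping1 tag in the coding sequence at chr2:84605911-84605931. These 3 tags were found in the protein-coding transcripts of no other gene, and other transcripts were not searched. The C1s tag, in the 3′ UTR at chr6:124480696-124480716, is identical to that of Gm5077, a copy of C1s. The Gm5077 tag, at chr6:124574918-124574938, lies inside the annotated span of C1s. The tag of C1rb, a copy of C1r, begins at chr6:124531014 and also occurs in the C1r transcript.

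The study's methods describe another protocol, with fragmented RNA and longer reads, so the same question was asked of longer windows. The windows were those of the longest protein-coding transcript of each gene. Of all 54-base windows, 46.0% in C1r also occurred in another gene, C1rb, and 22.4% in C1s also occurred in Gm5077, against 0% in C3 and 0% in Serping1. C1rb has no row in the table, and Gm5077, listed there under the older symbol EG317677, had a mean of 1.73 normalised reads. Reads of C1r and C1rb, or of C1s and Gm5077, could thus have been split or joined by the counting, and the values of C1r and C1s are uncertain to that extent. C1rb, annotated from 124462790 to 124531062, also overlaps both C1r and C1s in span. C1s is annotated on the strand opposite to C1rb. Gm5077, annotated from 124574584 to 124587055, overlaps C1s on the same strand. C3 and Serping1 shared no tag or window with the protein-coding transcripts of another gene, the only ones searched.

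**Figure D1:**
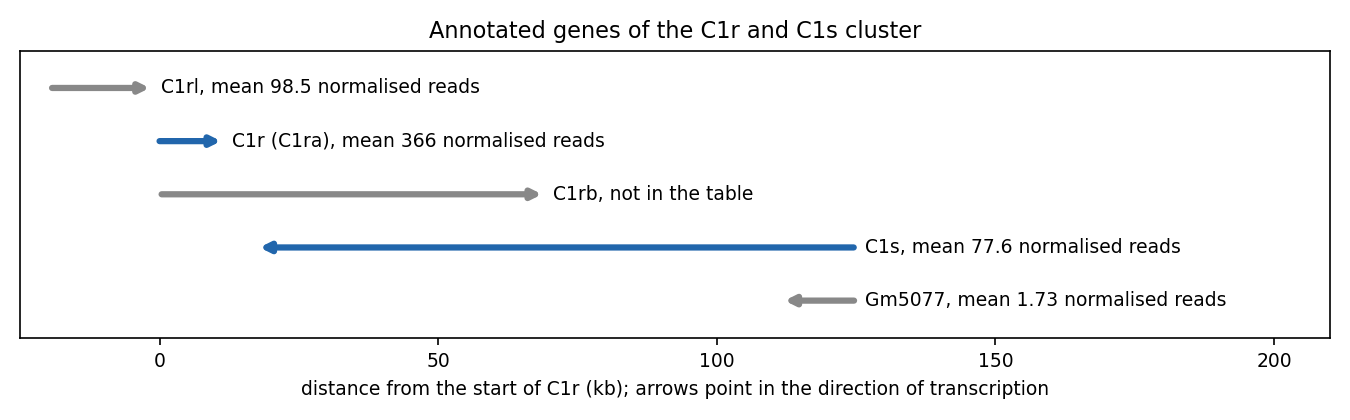
Annotated genes of the C1r and C1s cluster on mm9, with distance from the start of C1r in kb on the horizontal axis and arrows in the direction of transcription. C1r (mean 366 normalised reads) and C1s (77.6) are in blue, and C1rb, which overlaps both, has no row in the table.

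C3, encoding the component that the C3 convertases of all branches cleave, measured 135, 98 and 127.5 normalised reads in the 3 untreated libraries, 110.5, 100.25 and 92.1 after 12 h of RA, and 32.9 and 35.5 after 72 h. Both 72 h libraries were below every other library, while the untreated and 12 h values overlapped. The share of all tested genes that separate in this way was not counted, here or for the genes below. The group means were 120.2 ± 19.6 (SD, n = 3), 101.0 ± 9.21 (SD, n = 3) and 34.2 ± 1.86 (SD, n = 2). On the log2(value + 1) scale, C3 differed from untreated cells by -0.24 ± 0.17 (SE) at 12 h and by -1.77 ± 0.19 at 72 h, and the 72 h group differed from the 12 h group by -1.53 ± 0.19. Of the 12673 genes tested, 0.379% had a lower log2 change than C3 at 72 h against untreated cells, compared with 17.8% at 12 h.

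C1r, the protease that starts the classical cascade within the C1 complex, measured 436, 428 and 471 normalised reads in untreated cells. It measured 396, 395.5 and 381 after 12 h of RA, and 213 and 208 after 72 h. The 3 groups did not overlap: every 12 h library was below every untreated one, and both 72 h libraries were below all the others. The means were 445 ± 22.7 (SD, n = 3), 391 ± 8.66 (SD, n = 3) and 211 ± 3.45 (SD, n = 2). The log2 change from untreated cells was -0.19 ± 0.10 (SE) at 12 h and -1.07 ± 0.11 at 72 h. Between the RA groups it was -0.89 ± 0.11. Of all tested genes, 23.9% had a lower log2 change than C1r at 12 h and 1.44% at 72 h against untreated cells.

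C1s, the protease that C1r activates, measured 92, 90.1 and 74.8 normalised reads in untreated cells. After 12 h of RA it measured 84.5, 72 and 84.9, and after 72 h it measured 69.1 and 53.1. Untreated and 12 h values overlapped, and both 72 h values were below all the others, though the upper one was close to the lowest 12 h value. The means were 85.6 ± 9.47 (SD, n = 3), 80.5 ± 7.33 (SD, n = 3) and 61.1 ± 11.3 (SD, n = 2). The log2 change from untreated cells was -0.09 ± 0.17 (SE) at 12 h, where 38.2% of all tested genes had a lower one. At 72 h it was -0.49 ± 0.19, where 9.26% of all tested genes had a lower one. The 72 h value depended on the library: it was -0.67 without RA 72 h replicate 1 and -0.30 without RA 72 h replicate 2, each time leaving 1 library in the group, which was assumed to vary like the others.

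Serping1, which encodes the inhibitor of C1r and C1s, measured 1.75, 1.88 and 1.12 normalised reads in untreated cells. It measured 5.88, 3.38 and 2.5 after 12 h of RA, and 3.25 and 2.5 after 72 h. All 5 RA values were above the 3 untreated ones, but the lowest value of the table is 1, and Serping1 was below the filter and was not tested. In a fit without the filter, its log2 change from untreated cells was 0.88 ± 0.31 (SE) at 12 h and 0.59 ± 0.34 at 72 h. With a pseudocount of 10 in place of 1, these values became 0.26 and 0.15, so their size depended on the pseudocount. The untreated mean was 1.58 ± 0.402 (SD, n = 3), the 12 h mean 3.92 ± 1.75 (SD, n = 3) and the 72 h mean 2.88 ± 0.53 (SD, n = 2).

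**Figure D2:**
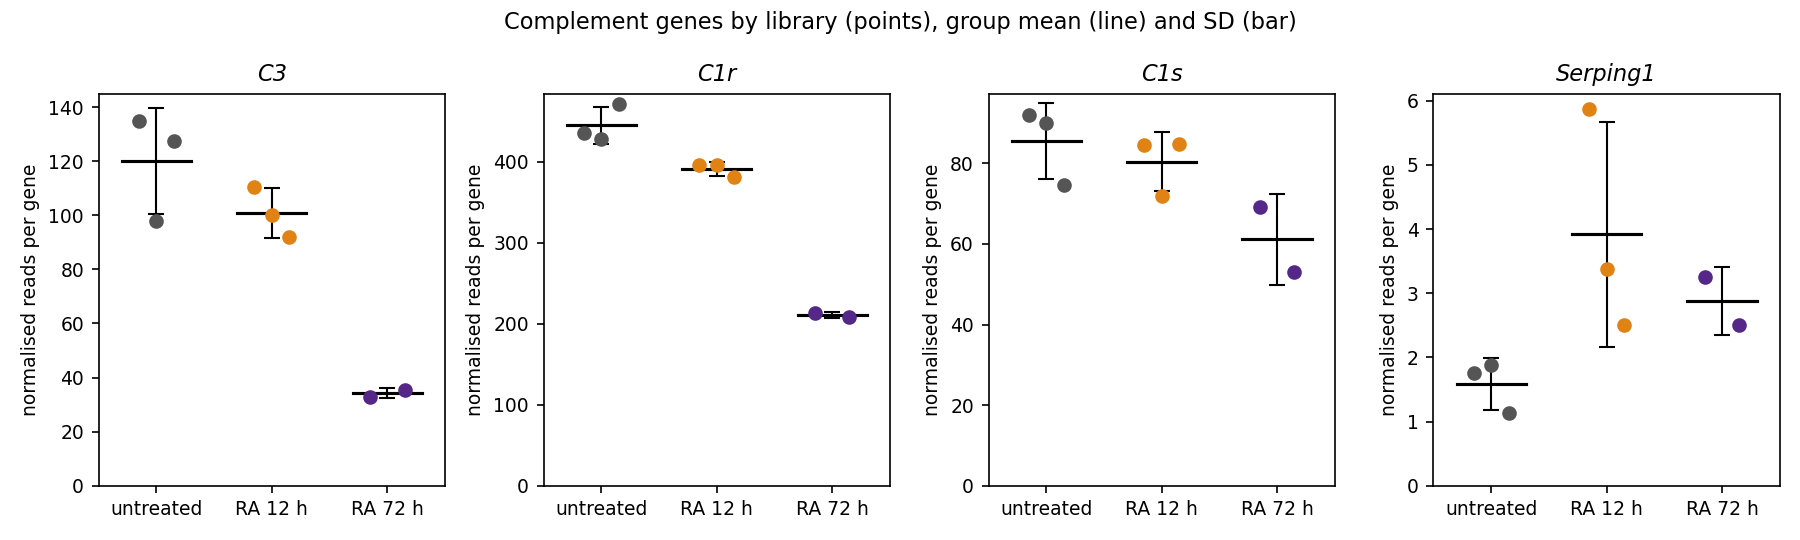
Normalised reads per gene of C3, C1r, C1s and Serping1 in each library (points), with the group mean (line) and SD (bar) over 3 untreated, 3 RA 12 h and 2 RA 72 h libraries, and a vertical axis from 0 of its own in each panel. The 72 h points of C3 and C1r lie apart from all others, and the Serping1 axis ends near 6 because no library reached more than 5.88.

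A gene was counted as called where the limma test over all genes gave a Benjamini-Hochberg adjusted p below 0.05 and the change was at least 2-fold. At 12 h against untreated cells, 0 of the 3 tested complement genes named above were called, where 1.42% of all tested genes were (180 of 12673). At 72 h against untreated cells, C3 and C1r were called lower and C1s was not, where 3.67% of all tested genes were called in either direction and 1.52% lower. Between 72 h and 12 h of RA, C3 was called lower, where 1.5% of all tested genes were called and 0.734% lower, and C1r, at 1.85-fold lower, was under the fold minimum. Because the genes were chosen for these changes, the counts describe the choice and are not a test of it. At 72 h against untreated cells, C1r at 2.11-fold lower was the nearer of the 2 called genes to the fold minimum, and C1s at 1.4-fold lower was the 1 tested gene short of it. With a 3-fold minimum, C3 at 72 h against untreated cells would be the only one of these calls left. The median log2 change of all tested genes was -0.02 at both times against untreated cells. These are bulk libraries, in which fewer cells expressing a gene and less RNA per cell cannot be told apart.

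**Figure D3:**
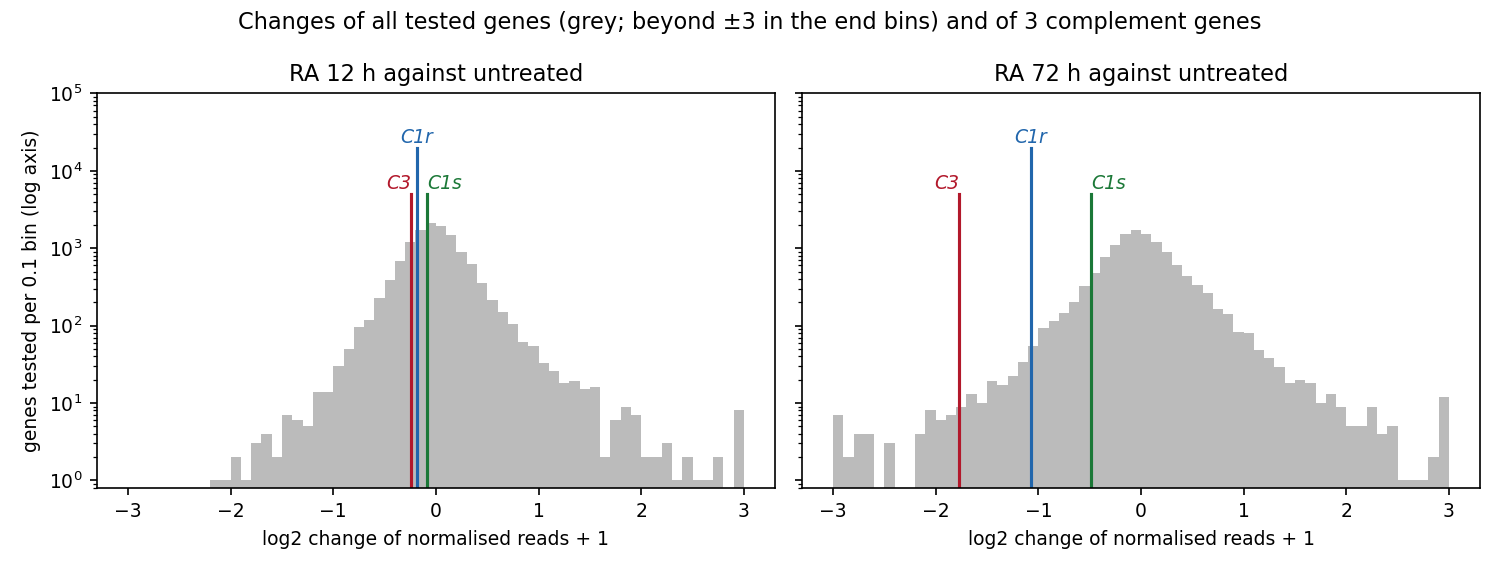
Number of tested genes (log axis) by log2 change of normalised reads + 1, in bins of 0.1, at 12 h (left) and 72 h (right) of RA against untreated cells, with the positions of C3, C1r and C1s as vertical lines. At 12 h the 3 lines stand inside the bulk of genes, and at 72 h C3 at -1.77 and C1r at -1.07 stand in the lower tail, with C1s at -0.49 nearer the bulk.

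Divided by exon length, to compare levels between genes, C1r was the most abundant of the 4 in each group, at 148, 130.2 and 70.2 mean normalised reads per kb of exon in untreated, 12 h and 72 h cells. C1s followed at 24.5, 23.1 and 17.5 per kb, and C3 at 23.4, 19.7 and 6.66 per kb. Serping1 was lowest at 0.681, 1.69 and 1.24 per kb. Of the 21465 genes found in the mm9 annotation, 82.2% had a lower mean per kb over the 8 libraries than C1r, 61.3% lower than C1s, 58.8% lower than C3 and 14.5% lower than Serping1. The levels per kb of C1s and C3 overlapped between libraries in untreated and in 12 h cells, and did not at 72 h, where C3 was below C1s. Under tag profiling, a gene gives 1 tag whatever its length, and this order by length would then not apply: without division by length, the mean of C3 was above that of C1s in untreated and 12 h cells (120.2 against 85.6, and 101.0 against 80.5), and below it only at 72 h.

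About 50.1% of the variance within groups lay along 1 axis shared by the 3 groups. Replicate 2 of RA 72 h, replicate 3 of RA 12 h and untreated replicates 1 and 2 had positive scores on it. The other 4 libraries had negative scores. The 2 sides are only the sign of the score, with no clear gap between them. Untreated replicate 1 (0.124) and RA 12 h replicate 2 (-0.134) lay close together on opposite sides. The axis was drawn from these same libraries after centring each group, so every group lies on both sides by construction. Values within a side describe the libraries and add no support for a change. Within each side, where each group had 1 or 2 libraries, the log2 change of C3 at 72 h against untreated cells was -1.67 and -1.92. That of C1r was -1.05 and -1.14. The 72 h change of C1s was -0.77 on the first side and -0.11 on the second, so its size depended on the side. At 12 h, C3 changed by -0.32 and -0.27 on the 2 sides and C1r by -0.18 and -0.25, while C1s gave -0.10 and 0.06. Serping1 gave 0.32 and 1.37 at 12 h and 0.32 and 1.00 at 72 h, so its size depended on the side as well. Spearman's rho between libraries of one group, across genes, was 0.981 to 0.994.

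The promoters of C3, C1r and C1s are shown because motifs near the start are a feature that the choice of genes did not use. They are the 250 bases before the start in the RefSeq annotation of GRCm38.p6, a later build than the mm9 used above, and Serping1 had no entry. Both strands were searched for 4 motifs: TATAAA, the core promoter box, TTGCNNAA, a site of C/EBP factors, GGGA and CC with any 4 bases between them, called the NF-kappaB motif here, and AGGTCA, the unit that retinoid and related nuclear receptors bind. Capitals mark the matches.
C3, chr17:57228137-57228386, minus strand: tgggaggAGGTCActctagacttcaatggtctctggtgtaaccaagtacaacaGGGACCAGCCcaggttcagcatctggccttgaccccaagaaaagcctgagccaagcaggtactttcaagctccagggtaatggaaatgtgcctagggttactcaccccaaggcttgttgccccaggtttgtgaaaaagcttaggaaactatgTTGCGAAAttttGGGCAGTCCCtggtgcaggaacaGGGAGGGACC
C1r, chr6:124512371-124512620, plus strand: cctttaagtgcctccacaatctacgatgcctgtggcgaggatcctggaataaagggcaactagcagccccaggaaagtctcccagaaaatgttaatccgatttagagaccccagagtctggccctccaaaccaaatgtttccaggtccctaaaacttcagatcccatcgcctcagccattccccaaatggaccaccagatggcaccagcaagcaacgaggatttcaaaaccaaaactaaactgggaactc
C1s, the first of 2 entries, chr6:124542360-124542609, minus strand: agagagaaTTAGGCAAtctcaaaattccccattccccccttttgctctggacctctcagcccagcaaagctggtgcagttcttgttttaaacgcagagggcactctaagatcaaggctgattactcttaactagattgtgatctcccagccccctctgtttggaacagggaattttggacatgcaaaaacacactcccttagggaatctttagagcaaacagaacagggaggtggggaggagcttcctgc
The C3 promoter held TTGCNNAA at 45 to 38 bases before the start and the NF-kappaB motif at 197 to 188, 33 to 24 and 10 to 1 bases before it. It also held AGGTCA at 243 to 238 bases before the start, and no TATAAA. The C1s promoter held TTGCNNAA at 242 to 235 bases before the start and none of the other 3, and the C1r promoter held none of the 4. Among 32851 promoters of the same length, TATAAA was found in 12.4%, TTGCNNAA in 9.56%, the NF-kappaB motif in 17.6% and AGGTCA in 14.0%. A match of letters is a description of the sequence and does not show that a factor binds there.

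The rest of the pathway was described from a list of 57 complement symbols ordered by role, of which 54 were in the table and 3, C1rb and C7 among them, were not. Apart from C3, C1r, C1s and Serping1, 50 of them were in the table and 14 had a mean of at least 10. Of these 14, 1 was called higher and 0 lower at 12 h against untreated cells (7.14%, beside 1.11% of all tested genes called higher and 0.308% lower). The same counts were found at 72 h, beside 2.15% of all tested genes called higher. The called gene, Itgb2, passed the filter only through the RA groups, as given below. Between 72 h and 12 h, 0 were called by limma, beside 0.765% of all tested genes called higher. At an unadjusted p below 0.05, 2 of the 14 were higher and 1 lower in each of the 3 comparisons, where 7.96%, 11.5% and 8.86% of all tested genes were higher and 8.33%, 12.4% and 10.0% lower (12 h and 72 h against untreated, 72 h against 12 h). The median log2 change of the 14 genes was 0.04 at 12 h and 0.22 at 72 h against untreated cells, with 6 and 4 of them below 0, beside -0.02 for all tested genes.

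Among the other initiators of the classical branch, C1rl, a C1r-like protease encoded just before C1r, had means of 92.2, 88.1 and 123 normalised reads in untreated, 12 h and 72 h cells. Its log2 change at 72 h against untreated cells was 0.39 ± 0.19 (SE; limma adjusted p = 0.229), and 1 library at 148.5 lay above the other 72 h value of 98.2. C1qa, C1qb and C1qc encode the chains of the recognition protein C1q. These genes and the C2 and C4 genes (C2, C4a and C4b) had means between 1.39 and 2.41 over the 8 libraries, near the lowest value. EG317677, described above, was in the same range. In these fibroblasts, the proteases C1r and C1s were measured well above the filter, and the chains of C1q, C2 and C4 were below it.

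In the lectin branch, where mannose-binding lectins and ficolins recognise sugars and activate their own proteases, Masp1, which encodes such a protease, measured 2217, 1758 and 1546 normalised reads in untreated cells, 1841, 1917 and 1883 after 12 h of RA, and 2619 and 2736 after 72 h. Both 72 h values were above all the others. Its log2 change at 72 h was 0.56 ± 0.13 (SE) against untreated cells (limma adjusted p = 0.0156) and 0.51 ± 0.13 against 12 h (adjusted p = 0.0419), under the 2-fold minimum in both. Masp2, another lectin-branch protease, and Colec10, a collectin, had group means between 11.6 and 21.7, and neither was called. Mbl1, Mbl2, Fcna, Fcnb and Colec11, the recognition proteins, had means between 1.89 and 5.75.

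Besides C3, the alternative branch was represented by Cfp, which encodes properdin, the stabiliser of the convertase. Its means of 14.0, 14.7 and 15.2 differed by less than the spread between libraries. Cfb and Cfd, encoding factor B and the protease factor D that cleaves it, were at 3.11 and 1.83. In the terminal branch, which builds the membrane attack complex, C8g measured 28.8, 28.1 and 17.2 normalised reads in untreated cells, 10, 12.4 and 12.6 after 12 h of RA, and 12.2 and 9.88 after 72 h. Every C8g value with RA was below the untreated ones, but the gene missed the threshold, at -0.99 ± 0.30 (SE; limma adjusted p = 0.0938) at 12 h and -1.06 ± 0.34 (adjusted p = 0.0613) at 72 h. Without untreated replicate 3, C8g was called lower at both times, at -1.22 (adjusted p = 0.0261) and -1.29 (adjusted p = 0.0191), and it was also called at 72 h without the variance trend (adjusted p = 0.0269) and with the library side as a term (adjusted p = 0.0318). C8a, encoding another chain of the same component, had means of 10.2, 17.2 and 11.9 and was not called. Hc (which encodes C5), C6, C8b and C9 were below the filter, with means between 3.45 and 9.94.

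Of the regulators that act in solution, Clu, which encodes clusterin, was the only one past the filter, with means of 195.5, 159 and 179. Its log2 changes of -0.28 and -0.12 from untreated cells were not called (limma adjusted p = 0.334 and 0.698). Besides Serping1, C4bp, Cfi, Vtn, Cpn1 and Cpn2 were below the filter, with means between 2.5 and 7.23. Of the regulators held on membranes, Cr1l (Crry, which limits C3 deposition in rodents) had means of 48.4, 54.6 and 62.4, and Cd55 (decay-accelerating factor) 9.46, 13.8 and 11.6. Neither was called. Csmd1, a very long gene of 1643050 bases, measured 123, 64.8 and 246 in untreated cells, a spread wider than its differences between groups, and was not called (log2 change of 0.62 ± 0.36 at 12 h and 0.56 ± 0.41 at 72 h, SE; limma adjusted p = 0.433 and 0.447). Without untreated replicate 3, at 246, Csmd1 was called higher at both times, at 1.10 (adjusted p = 0.0133) and 1.05 (adjusted p = 0.0183). Cd46, Daf2, Cd59a and Cd59b were below the filter.

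Among receptors, Itgb2, the beta-2 chain shared by the leukocyte integrins including complement receptors 3 and 4, was the gene called higher in both comparisons. It measured 11, 7.25 and 10.2 normalised reads in untreated cells, 28.8, 26.9 and 33.8 after 12 h of RA, and 20.5 and 31 after 72 h. All 5 values with RA were above the untreated ones. The untreated mean of 9.5 was below the filter of 10, so Itgb2 was tested only because of its higher level with RA. Its call is to be read with that limit. The log2 change was 1.56 ± 0.28 (SE; limma adjusted p = 0.00467) at 12 h and 1.34 ± 0.31 (adjusted p = 0.0131) at 72 h, and -0.22 ± 0.31 (adjusted p = 0.776) between the RA groups. The 72 h call of Itgb2 was lost without RA 72 h replicate 2 (1.05, adjusted p = 0.158) and, by the fold minimum, with a pseudocount of 10 (0.86, adjusted p = 0.0152). Its partner chains Itgam and Itgax had means of 7.19 and 3.23, below the filter. The summed level of 11 leukocyte and macrophage markers was 78.4 to 101 in untreated cells, 72.8 to 91 after 12 h and 78.2 to 87 after 72 h, with 2 of the 11 at a mean of at least 10 and 0 at 100 or more. Emr1 and Cd14 were those 2, at means of 21.6 and 22.8, while Ptprc was at 9.42, and Lyz2, Tyrobp and Cd52 were at 1.69, 1.42 and 1.11. The part of such cells in the change of Itgb2 was not tested. C1qbp, which encodes a mitochondrial protein named for binding C1q, had means of 915, 1090 and 872, and Cr2 means of 11.3, 9.21 and 12.9, and neither was called. C3ar1, C5ar1 and Gpr77, the anaphylatoxin receptors, and Vsig4 and Cd93 had means between 2.88 and 5.95.

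**Figure D4:**
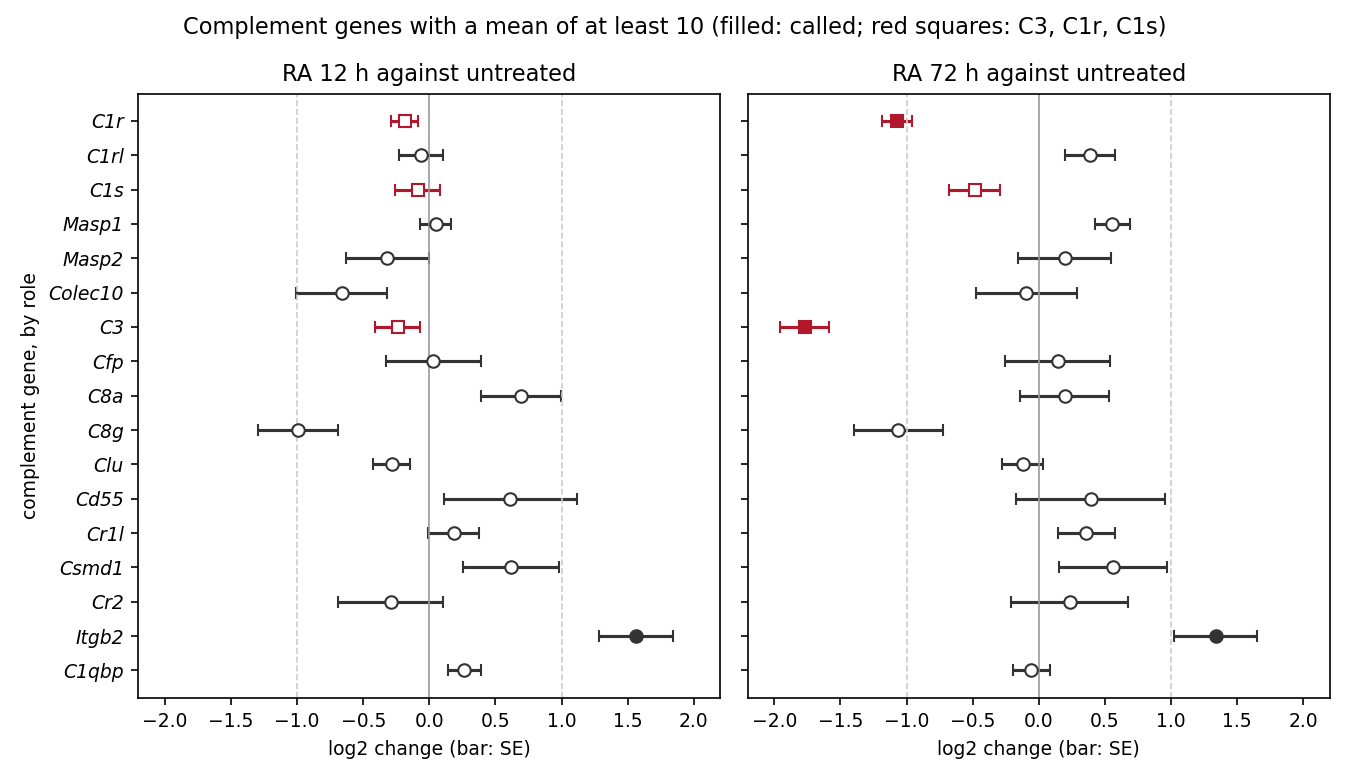
Log2 change (points) with its SE (bars) of the 17 complement genes with a mean of at least 10, ordered by role, at 12 h (left) and 72 h (right) of RA against untreated cells, with dashed lines at 2-fold, red squares for C3, C1r and C1s, and filled symbols for called genes. At 12 h Itgb2 is called, and at 72 h Itgb2 is called to the right and C1r and C3 to the left.

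C3 is also known as an acute phase gene, raised in inflammation through C/EBP factors, STAT3 and NF-kappaB, so a list of 35 acute phase genes and their upstream signalling was counted as well. In all, 33 were in the table and 18 were tested. At 12 h, 0 were called higher and 1 lower, at 72 h against untreated cells 0 higher and 1 lower, and at 72 h against 12 h 1 higher and 1 lower. Over all tested genes, 1.11% were called higher and 0.308% lower at 12 h, 2.15% and 1.52% at 72 h, and 0.765% and 0.734% between the RA groups. At an unadjusted p below 0.05, limma gave 0 higher and 6 lower at 12 h, 4 higher and 3 lower at 72 h, and 4 higher and 1 lower between the RA groups, to be read against the shares of all tested genes at that unadjusted threshold given above for the complement list. Lcn2, encoding the iron-binding lipocalin 2, measured 88.8, 102 and 88.9 in untreated cells, 105, 87.5 and 89.8 after 12 h of RA, and 37.9 and 28.4 after 72 h. Lcn2 was thus lower in both 72 h libraries than in any other, with log2 changes of 0.01 ± 0.17 (SE; limma adjusted p = 0.98) at 12 h and -1.48 ± 0.19 (adjusted p = 0.000209) at 72 h. Ptx3, encoding a pentraxin that binds C1q, measured 4209, 3976 and 5117 in untreated cells, 1835, 1860 and 1506 after 12 h, and 6736 and 6173 after 72 h. Ptx3 was lowest at 12 h and highest at 72 h, with no overlap between groups. Its log2 change was -1.35 ± 0.12 (SE; limma adjusted p = 1.06e-05) at 12 h and 0.55 ± 0.13 (adjusted p = 0.0165, under 2-fold) at 72 h against untreated cells. The calls of Lcn2 and Ptx3 were kept under the 15 alternatives run at the 2-fold minimum, and at a 3-fold minimum the call of Ptx3 at 72 h against 12 h would be the only one of them left. The remaining 16 tested genes of the list were not called in any of the 3 comparisons. Some of them had a limma adjusted p below 0.05 and missed only the 2-fold minimum. At 12 h against untreated cells these were Il6st (log2 change -0.646), Nfkbia (-0.515), Osmr (-0.448) and Stat3 (-0.367). At 72 h against untreated cells they were Nfkbia (-0.665), Il6st (-0.612), Cebpb (0.48) and Osmr (0.439). Between 72 h and 12 h they were Osmr (0.887), Cebpb (0.781) and Stat3 (0.511).

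**Figure D5:**
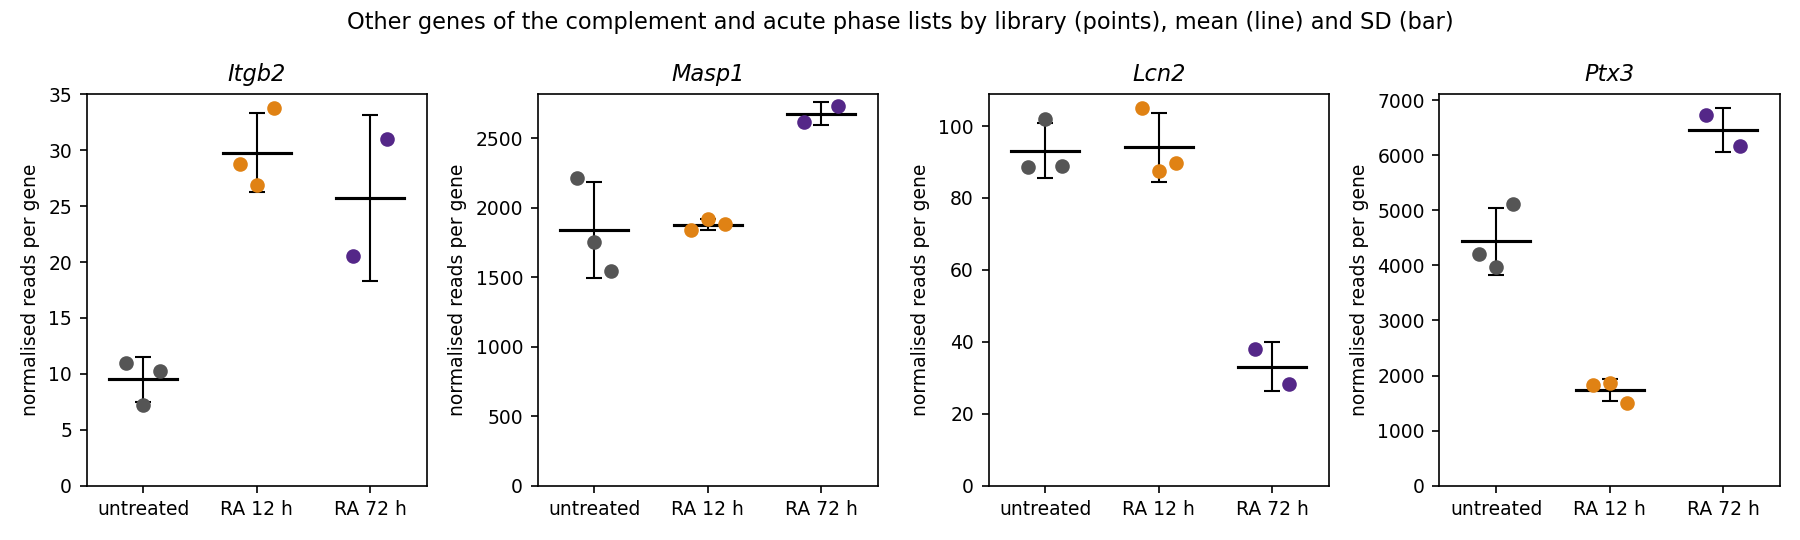
Normalised reads per gene of Itgb2, Masp1, Lcn2 and Ptx3 in each library (points), with the group mean (line) and SD (bar), and a vertical axis from 0 of its own in each panel. Itgb2 is higher in all 5 RA libraries than in the 3 untreated ones, Masp1 and Ptx3 are highest and Lcn2 lowest in the 2 libraries at 72 h, and Ptx3 is lowest in the 3 libraries at 12 h.

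The genes outside the complement list whose pattern was most like each of the 4 were found by Pearson's r over the 8 libraries on the log2(value + 1) scale, as a description in which the points share their libraries and groups. For C3 they were Sfxn3 (r = 0.991), Eme2 (0.988) and Coro1b (0.988), and 62 tested genes had r of at least 0.95. Sfxn3, a mitochondrial serine carrier, had means of 609, 586 and 363 normalised reads in untreated, 12 h and 72 h cells. For C1r they were Anxa8 (r = 0.992), Postn (0.989) and Dact2 (0.989), with 85 genes at 0.95 or more. Postn, which encodes the matrix protein periostin, had means of 973, 762.5 and 348, and Anxa8, a phospholipid-binding annexin, of 2638, 1943 and 468. For C1s they were 0610010O12Rik (r = 0.978), Rilp (0.969) and Ptprn (0.944), with 2 genes at 0.95 or more. For Serping1 they were Sh3rf1 (r = 0.951), Plekha3 (0.948) and Irx5 (0.945), with 1 gene at 0.95 or more. Sh3rf1 had means of 145, 231 and 178. Serping1 itself ranged only from 1.125 to 5.875 normalised reads, so its r values rest on levels near the lowest of the table.

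The cell type was checked against marker lists. Of 12 fibroblast markers, 9 had a mean of at least 100, while Thy1 (1.86), Dcn (5.7) and Lum (1.48) were near the lowest value. Their summed level was 241017 to 259412 normalised reads in untreated cells and 239644 to 250520 after 12 h of RA. After 72 h it was 218675 to 224516, so it was lower in both 72 h libraries, as C3 and C1r were. The sum rests mainly on Vim (mean 98800), Col1a1 (53750), Fn1 (40140) and Col1a2 (25780), while Pdgfra (397) hardly enters it. Single markers were not compared between groups, and the part of this sum in the change of C3 and C1r was not tested. Hepatocyte markers had 0 of 6 at a mean of at least 10, epithelial markers 1 of 5 found in the table, and endothelial markers 3 of 5. The Taf4a row read 984 to 1449 in the 8 libraries. It is a whole-gene value, and which part of the gene was deleted was not given in the sources used here, so it checks nothing about the genotype. The titles carry the tag cl1, which resembles the study's name for its TAF4-expressing line, and the genotype label was followed.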

How the data were processed

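The authors deposited 1 table of normalised reads per Ensembl gene (mm9 per the labels), with 1 column for each of the 8 libraries, taken here as deposited values that are neither raw reads nor a standard unit. All columns share the same sorted values, so the libraries had been quantile normalised; depth is unknown, and no counting interval can be given. The labels describe DpnII tag profiling with a Genome Analyzer II, whereas the study's methods describe fragmented RNA, Tophat, Cufflinks and 1 passage that gives another late time point; 72 h stands in the labels and in the study's account of its results, and was followed. The design text of the series gives 7 samples, but 8 columns were deposited. Group averages and log2 ratios by the authors were not used, and 1 line without a gene was left out.

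Values were taken as log2(value + 1). The 12673 of 22200 genes whose mean was 10 or more entered 1 limma fit (version 3.58.1, R 4.3.3) of the 3 groups with a variance trend, tested on simulated data. Tests were two-sided, with Benjamini-Hochberg adjustment over all genes tested in a comparison, and calls needed an adjusted p below 0.05 and 2-fold. Named were the 4 genes, the complement list by role, acute phase genes with an adjusted p below 0.05, and the 3 genes of highest Pearson r with each of the 4. Some genes of the complement list, all below the filter or without a row, are not reported here by name. Members and lists were chosen with earlier results of these data known. Coordinates and tags are from the mm9 annotation. Alternatives were another pseudocount (10), no filter or a mean of at least 50, added size factors, no variance trend, no or a 3-fold minimum, a replicate block, the library side as a term, and leaving out each library.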

Additional observations from a re-analysis of the deposited data

Results flagged for a closer look

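The effect of RA differed between the times for 2 genes of the acute phase list, by the limma test of 72 h against 12 h. Lcn2 was at the untreated level at 12 h and lower at 72 h, a log2 difference between the times of -1.49 ± 0.19 (SE; adjusted p = 0.000473), and both 72 h libraries were below all 3 at 12 h. Ptx3 was lower than untreated cells at 12 h and higher at 72 h, a log2 difference between the times of 1.90 ± 0.13 (SE; adjusted p = 6.81e-06), and both 72 h libraries were above all 3 at 12 h. The untreated libraries carry no 72 h time point, so RA and time in culture cannot be told apart for either gene.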

How the results depend on the processing

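The changes of C3, C1r and C1s kept their direction in every fit, and both calls of C3 and the 72 h call of C1r were kept under the 15 alternatives run at the 2-fold minimum; at 3-fold, of these calls that of C3 at 72 h against untreated cells would be left. C3, C1r and C1s were chosen with their values known, and every fit draws on the same libraries. The kept calls thus describe the settings and add no support for the changes. With a pseudocount of 10, C3 became -1.55 at 72 h against untreated cells and -1.33 against 12 h. At that pseudocount, Serping1 became 0.26 at 12 h and 0.15 at 72 h, and 0 further complement genes were called at 72 h. At a mean of at least 50, 0 were called at 12 h and 0 at 72 h, Itgb2 being below that mean, Serping1 had no value, and 297 genes in all were called at 72 h (195 higher, 102 lower). At 72 h, 2 further complement genes were called with the library side as a term, 2 without the variance trend and 2 with no fold minimum, where 72 h against 12 h gave 1. Without a fold minimum, 554, 1456 and 740 genes were called in the 3 comparisons (12 h and 72 h against untreated, 72 h against 12 h), and at 3-fold 59, 165 and 41. Leaving out each library in turn gave 148 to 322 called genes at 12 h, the highest without untreated replicate 3, with 1 to 3 further complement genes at 12 h and 0 to 3 at 72 h (3 without untreated replicate 3, 0 without RA 72 h replicate 2). Within one library side, C1s at 12 h was 0.06. Without a library, C1s ranged from -0.67 to -0.30 at 72 h against untreated cells and from -0.59 to -0.21 against 12 h. At 12 h, where neither was called, C3 ranged from -0.38 (without untreated replicate 2) to -0.15 (without untreated replicate 1) and C1s from -0.18 (without untreated replicate 3) to -0.01 (without RA 12 h replicate 2). The cause of these differences was not tested, beyond the fewer genes or samples that a setting itself leaves. Replicate numbers did not pair the samples (correlations of same-numbered deviations from -0.47 to 0.42); with the replicate block, 174, 430 and 172 genes were called, C3 was -1.78 and C1r -1.06 at 72 h, and no call of these genes changed. Depth is lost in the normalisation, so the precision of genes near the lowest value, Serping1 among them, cannot be given.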
